A study of Macaca mulatta with 24 samples.

Results

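A set of 9 genes of neural cell adhesion and axon outgrowth, NRCAM, NFASC, CHL1, NCAM1, NCAM2, FLRT2, FLRT3, SVEP1 and STMN2, was examined in visceral fat of rhesus macaques. The genes were chosen by name, with their responses to the combined treatment known beforehand, and each was matched to a row of the count table through its Ensembl identifier. Of the 9 genes, 8 were measured and all 8 were among the 15207 genes tested, out of 32386 genes in the table. FLRT2 was not analysed here. RNA-seq was performed on omental white adipose tissue (WAT) biopsies from 24 female macaques, 6 in each of 4 groups, taken in year 3 of treatment. The controls (*C*) carried implants of cholesterol and ate monkey chow. Animals of the *T* group carried implants of testosterone, which raise the circulating androgen, and ate the same chow. Animals of the *WSD* group ate a high-fat Western-style diet, and animals of the *T* + *WSD* group received both the testosterone and the diet. The labels give an age of 4 years for every animal, and the methods of the study give an older age. Each library is 1 whole-tissue biopsy of 1 animal, so it holds adipocytes together with stromal, vascular, immune, nerve and mesothelial cells.

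NRCAM, NFASC and CHL1 belong to the L1 family, transmembrane adhesion proteins with immunoglobulin domains outside the cell and a tail that binds ankyrin, which ties them to the spectrin skeleton. NCAM1 and NCAM2 are adhesion proteins of the same superfamily that bind copies of themselves on neighbouring cells. FLRT2 and FLRT3 carry leucine-rich repeats and bind latrophilins and the UNC5 receptors, SVEP1 is a large secreted matrix protein that binds integrins, and STMN2 is a stathmin of growing axons that destabilizes microtubules. These genes are best known from the nervous system. Visceral fat receives sympathetic nerve fibres, whose cell bodies and most of whose RNA lie outside the tissue, and several of these proteins are also made by stromal, vascular and epithelial cells.

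The libraries held 6899185 to 28270776 counts each (median 20630512.5). In 8 libraries, 2 from each group, a single gene (ENSMMUG00000038258) took between 9.92% and 54.7% of the counts, against 0.879% to 2.51% in the other 16. These 8 libraries are termed the library batch here, although the labels name no batch and only the share of this gene (over 5%) sets them apart. They include the *T* + *WSD* animals 7 and 8, and the log2 fold changes of NRCAM, NFASC, FLRT3 and SVEP1 in *T* + *WSD* are also given within both sets of libraries. Levels are CPM, the counts of a gene scaled to a library total of 1e+06 after TMM correction, and are compared between animals for 1 gene at a time, since gene lengths were not used. A gene was called changed at an adjusted p under 0.05 in edgeR's quasi-likelihood test and a fold change over 1.5.

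Against *C*, the *T* + *WSD* animals had higher levels of NRCAM, NFASC, SVEP1 and STMN2 and a lower level of FLRT3, while CHL1, NCAM1 and NCAM2 were not called. Thus 5 of the 8 genes were called, 4 higher and 1 lower, where 4.72% of all tested genes were called higher and 5.29% lower. In each of the 5 the *T* + *WSD* animals did not overlap with *C*, which held for 7.61% of all tested genes in either direction. STMN2 is among the 5, but it passed the filter on low counts through 5 *T* + *WSD* libraries and 1 *WSD* library. A difference was thus built into its passing, and its separation from *C* was 0.0832 against 0.0825 CPM at the closest. These genes were chosen with this comparison known, so its values are given as a description without p values. In whole tissue, fewer cells of a type and less RNA per cell cannot be told apart.

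**Figure D1:**
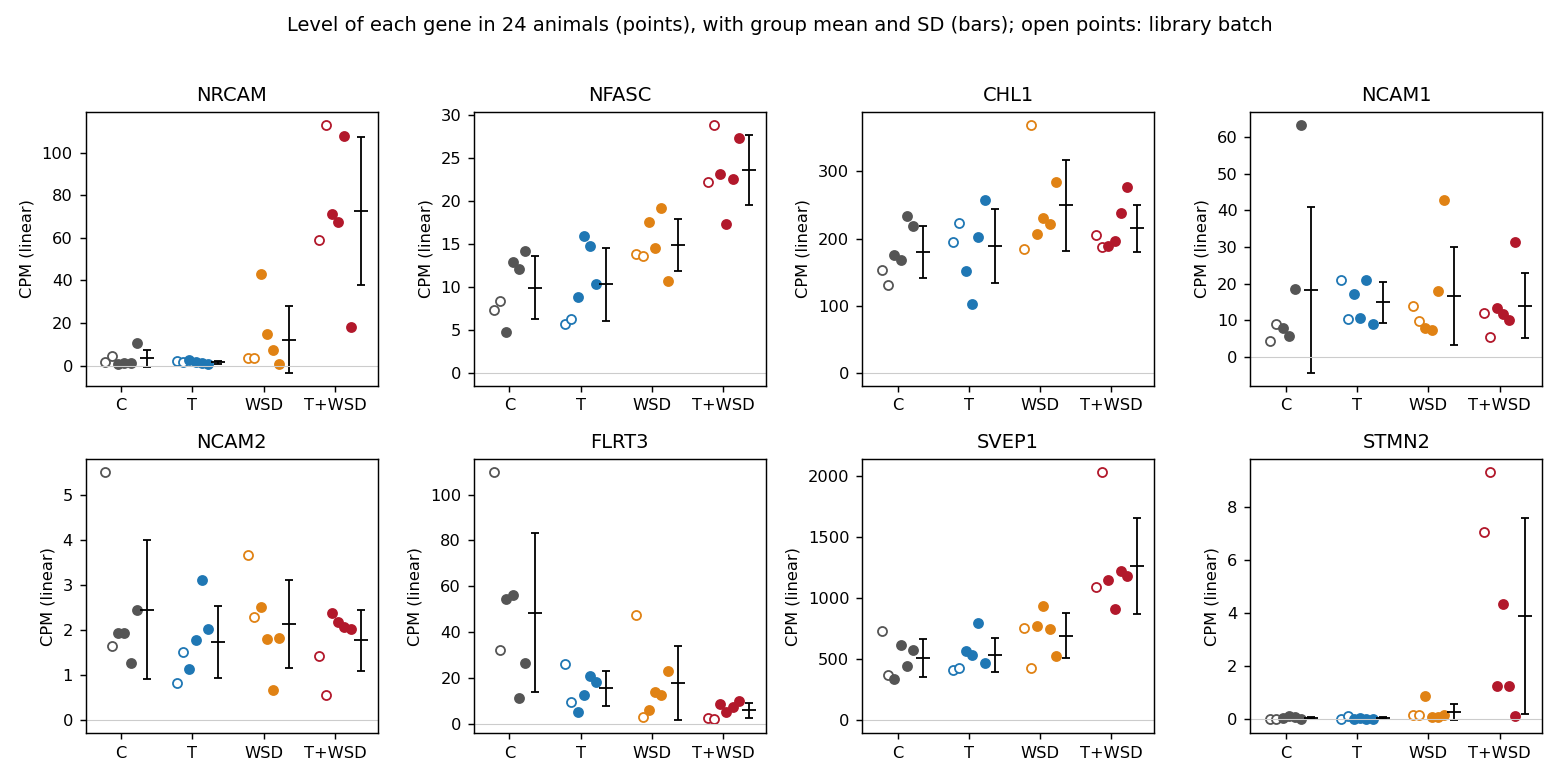
Level of each of the 8 genes in every animal, in CPM on linear axes that differ between panels. Points are animals of the groups C, T, WSD and T+WSD, open points are the 8 libraries of the library batch, and bars are the group mean and SD (n = 6). The 6 T+WSD animals lie above every control for NRCAM, NFASC, SVEP1 and STMN2 (for STMN2 at 0.0832 against 0.0825 CPM at the closest) and below every control for FLRT3.

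Of the L1 family, NRCAM (ENSMMUG00000021293) showed the widest range. This ankyrin-binding protein helps to gather sodium channels at the nodes of myelinated axons. Its lowest, median and highest levels were 0.800, 1.45 and 10.8 CPM in *C*, 0.781, 1.62 and 2.60 CPM in *T*, 0.915, 5.54 and 42.9 CPM in *WSD*, and 18.3, 69.4 and 113 CPM in *T* + *WSD*. All 6 *T* + *WSD* animals therefore lay above every *C* and every *T* animal, and 5 of 6 lay above every *WSD* animal. The overlap came from *WSD* animal 21, at 42.9 CPM, and *T* + *WSD* animal 12, at 18.3 CPM. The group means were 3.37 ± 3.89 CPM in *C*, 1.65 ± 0.690 CPM in *T*, 12.2 ± 15.8 CPM in *WSD* and 72.8 ± 34.7 CPM in *T* + *WSD* (SD, n = 6 each), and the mean of *C* was raised by animal 6, at 10.8 CPM. The level in *T* + *WSD* was 21.7-fold that in *C* (log2 fold change 4.44, SE 0.78), and the log2 fold change was 4.24 in the 16 libraries outside the batch and 4.92 in the 8 libraries within it.

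The diet alone gave NRCAM a log2 fold change of 1.90 (SE 0.72, edgeR adjusted p = 0.1826), which did not pass the threshold, with 2 of 6 *WSD* animals above every control. Its size moved with single animals, to 0.90 without *WSD* animal 21 and to 2.93 without *C* animal 6. Testosterone alone gave -1.03 (SE 0.77, edgeR adjusted p = 0.7209). That value rested on 1 control, since without *C* animal 6 it was -0.0045, and the median of *T* was above that of *C*. Against *T*, NRCAM in *T* + *WSD* rose by 5.48 on the log2 scale (SE 0.83, edgeR adjusted p = 0.0016), with 6 of 6 animals above every *T* animal, which held for 2.99% of all tested genes. This was 5.45 outside the batch (edgeR adjusted p = 0.03057) and 5.51 within it (edgeR adjusted p = 0.2569). Against *WSD* the log2 fold change was 2.54 (SE 0.71, edgeR adjusted p = 0.06303), just outside the threshold. Without *WSD* animal 21 it was 3.54 (edgeR adjusted p = 0.01026), and DESeq2 gave 2.58 with all animals (adjusted p = 0.008872). With other animals left out it ran down to 2.29, with an edgeR adjusted p of up to 0.1291, and it was 2.0004 outside the batch (edgeR adjusted p = 0.3985) and 4.63 within it (edgeR adjusted p = 0.489).

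NFASC (ENSMMUG00000017508), a relative of NRCAM that anchors the axon initial segment and the node, differed by less but with little spread. Its lowest, median and highest levels were 4.80, 10.2 and 14.2 CPM in *C*, 5.76, 9.57 and 15.9 CPM in *T*, 10.7, 14.2 and 19.1 CPM in *WSD*, and 17.4, 22.8 and 28.8 CPM in *T* + *WSD*. The *T* + *WSD* animals lay above all *C* and *T* animals, and the *WSD* animals overlapped with both *C* and *T* + *WSD*, with 3 of 6 above every control. The log2 fold change of *T* + *WSD* against *C* was 1.23 (SE 0.26), a 2.35-fold higher level, with 1.05 outside the library batch and 1.73 within it. Against *T*, NFASC rose by 1.17 on the log2 scale (SE 0.26, edgeR adjusted p = 0.01435). This was 0.87 outside the batch (edgeR adjusted p = 0.1001) and 2.09 within it (edgeR adjusted p = 0.2569). The differences of *T* + *WSD* from *WSD* (0.65, SE 0.25, edgeR adjusted p = 0.1477) and of *WSD* from *C* (0.58, SE 0.25, edgeR adjusted p = 0.2309) did not pass. They were 0.55 and 0.50 outside the batch and 0.92 and 0.81 within it, and did not pass there either.

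CHL1 (ENSMMUG00000001349), the third of the L1 family here and a promoter of neurite growth, did not follow NRCAM and NFASC. Its lowest, median and highest levels were 131, 172 and 233.6 CPM in *C*, 103, 199 and 258 CPM in *T*, 185, 226 and 369 CPM in *WSD*, and 187, 201 and 276 CPM in *T* + *WSD*. The 4 groups overlapped, and the highest group mean was that of *WSD* (249 ± 67.1 CPM) rather than *T* + *WSD* (215 ± 35.0 CPM). The log2 fold changes against *C* were 0.07 (SE 0.19, edgeR adjusted p = 0.9509) in *T*, 0.47 (SE 0.19, edgeR adjusted p = 0.209) in *WSD* and 0.26 (SE 0.19) in *T* + *WSD*. Among these 3 relatives, therefore, 2 were called in *T* + *WSD* against *C* and 1 was not.

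NCAM1 (ENSMMUG00000004688), which modulates adhesion between nerve and muscle cells and carries polysialic acid in plastic tissue, varied mainly between animals. The lowest, median and highest levels were 4.39, 8.49 and 63.4 CPM in *C*, 9.03, 13.9 and 21.1 CPM in *T*, 7.34, 11.8 and 42.7 CPM in *WSD*, and 5.37, 11.9 and 31.4 CPM in *T* + *WSD*. A single animal stood above the others in 3 of the 4 groups, namely *C* animal 6, *WSD* animal 24 and *T* + *WSD* animal 12. The log2 fold changes against *C* were -0.30 (SE 0.57, edgeR adjusted p = 0.9109) in *T*, -0.14 (SE 0.57, edgeR adjusted p = 0.9265) in *WSD* and -0.36 (SE 0.57) in *T* + *WSD*. Their sign rested on *C* animal 6, without which they were 0.70, 0.86 and 0.64.

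NCAM2 (ENSMMUG00000004300), its relative from the olfactory system, had few counts. The levels ran from 1.27 to 5.51 CPM in *C*, from 0.822 to 3.11 CPM in *T*, from 0.683 to 3.66 CPM in *WSD* and from 0.565 to 2.39 CPM in *T* + *WSD*, with counts from 2 to 98 per library. The medians were 1.94, 1.65, 2.07 and 2.05 CPM, and all groups overlapped. Against *C* the log2 fold changes were -0.49 (SE 0.39, edgeR adjusted p = 0.7377) in *T*, -0.24 (SE 0.39, edgeR adjusted p = 0.7844) in *WSD* and -0.41 (SE 0.39) in *T* + *WSD*. Without *C* animal 1, at 5.51 CPM, these were -0.09, 0.18 and 0.02.

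FLRT3 (ENSMMUG00000002916), a repulsive and adhesive guidance protein that also acts at epithelial junctions, was the single gene of the set called lower in *T* + *WSD* against *C*. Its lowest, median and highest levels were 11.2, 43.5 and 110 CPM in *C*, 5.19, 15.5 and 26.2 CPM in *T*, 2.85, 13.3 and 47.4 CPM in *WSD*, and 2.26, 6.27 and 10.02 CPM in *T* + *WSD*. All 6 *T* + *WSD* animals lay below every control, while *T* and *WSD* each overlapped with both *C* and *T* + *WSD*. The log2 fold change of *T* + *WSD* against *C* was -2.95 (SE 0.59), with -2.24 outside the library batch and -4.86 within it. Each treatment alone gave a negative log2 fold change that did not pass the threshold, -1.65 (SE 0.56, edgeR adjusted p = 0.519) for *T* and -1.47 (SE 0.56, edgeR adjusted p = 0.1788) for *WSD*. The differences of *T* + *WSD* from *WSD* (-1.47, SE 0.57, edgeR adjusted p = 0.1479) and from *T* (-1.30, SE 0.57, edgeR adjusted p = 0.1533) did not pass either. They were -0.83 and -0.86 outside the batch (edgeR adjusted p = 0.5314 and 0.3055) and -3.35 and -2.88 within it (edgeR adjusted p = 0.7124 and 0.7557).

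SVEP1 (ENSMMUG00000047960), a matrix protein that binds the integrin chain ITGA9 and takes part in lymphatic vessel growth, had between 2250 and 28440 counts per library. Its lowest, median and highest levels were 339, 510 and 728 CPM in *C*, 416, 502 and 797 CPM in *T*, 427, 752 and 932 CPM in *WSD*, and 907, 1164 and 2032 CPM in *T* + *WSD*. The *T* + *WSD* animals lay above all *C* and *T* animals, and 5 of 6 lay above every *WSD* animal. The log2 fold change of *T* + *WSD* against *C* was 1.30 (SE 0.23), a 2.47-fold higher level, with 1.19 outside the library batch and 1.54 within it. Against *T*, SVEP1 rose by 1.24 on the log2 scale (SE 0.23, edgeR adjusted p = 0.00566). This was 0.92 outside the batch (edgeR adjusted p = 0.04456) and 1.90 within it (edgeR adjusted p = 0.7441). Against *WSD* the log2 fold change was 0.86 (SE 0.23, edgeR adjusted p = 0.05137), which lay at the threshold and passed it with other size factors and with DESeq2 (0.89, adjusted p = 0.008658), and without *WSD* animal 21 (0.90, edgeR adjusted p = 0.0396) or 22 (0.97). Without *T* + *WSD* animal 8 it was 0.69, the edgeR adjusted p reached 0.1307 with 1 animal left out, and the value was 0.59 outside the batch (edgeR adjusted p = 0.3118) and 1.42 within it (edgeR adjusted p = 0.7124). The diet alone gave 0.44 (SE 0.23, edgeR adjusted p = 0.2995) and testosterone alone 0.07 (SE 0.23, edgeR adjusted p = 0.962).

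STMN2 (ENSMMUG00000000507) was at or under 3 counts in all *C* and *T* animals and in 5 of 6 *WSD* animals. Its counts were 0, 0, 1, 2, 1 and 0 in *C*, 0, 1, 0, 1, 0 and 0 in *T*, 1, 1, 21, 2, 2 and 3 in *WSD*, and 59, 33, 30, 103, 29 and 2 in *T* + *WSD*, in the order of the animal numbers. The *T* + *WSD* animals thus fell into 5 with at least 29 counts and animal 12 with 2 counts, and *WSD* animal 21 had 21 counts. In CPM, *T* + *WSD* ran from 0.0832 to 9.33 with a median of 2.79, *C* reached 0.0825, and *WSD* ran from 0.0789 to 0.855 with a median of 0.130. STMN2 passed the filter on low counts through those 5 *T* + *WSD* animals and *WSD* animal 21, so a difference was built into its passing. Its separation from *C* was narrow at the lower end, where *T* + *WSD* animal 12 and the highest control had 2 counts each. No *C* or *T* animal had more than 3 counts, so no fitted fold change is given against those groups.

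Summed over animals, STMN2 had 256 counts in *T* + *WSD*, 30 in *WSD*, 2 in *T* and 4 in *C*. The rate per library total in *T* + *WSD* was 71.1 times that in *C* (95% exact interval 27.4 to 263), that in *WSD* 7.88 times (2.78 to 30.8) and that in *T* 0.431 times (0.0390 to 3.01). These intervals cover counting error only, not the spread between animals. In *T* + *WSD*, 5 of 6 animals lay above every *WSD* animal, the exception being animal 12. No p value of STMN2 is given, since it was among the tested genes through the group in which it was high. Counts of calls over the whole set include STMN2, and its calls there were not taken as support for a change.

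**Figure D2:**
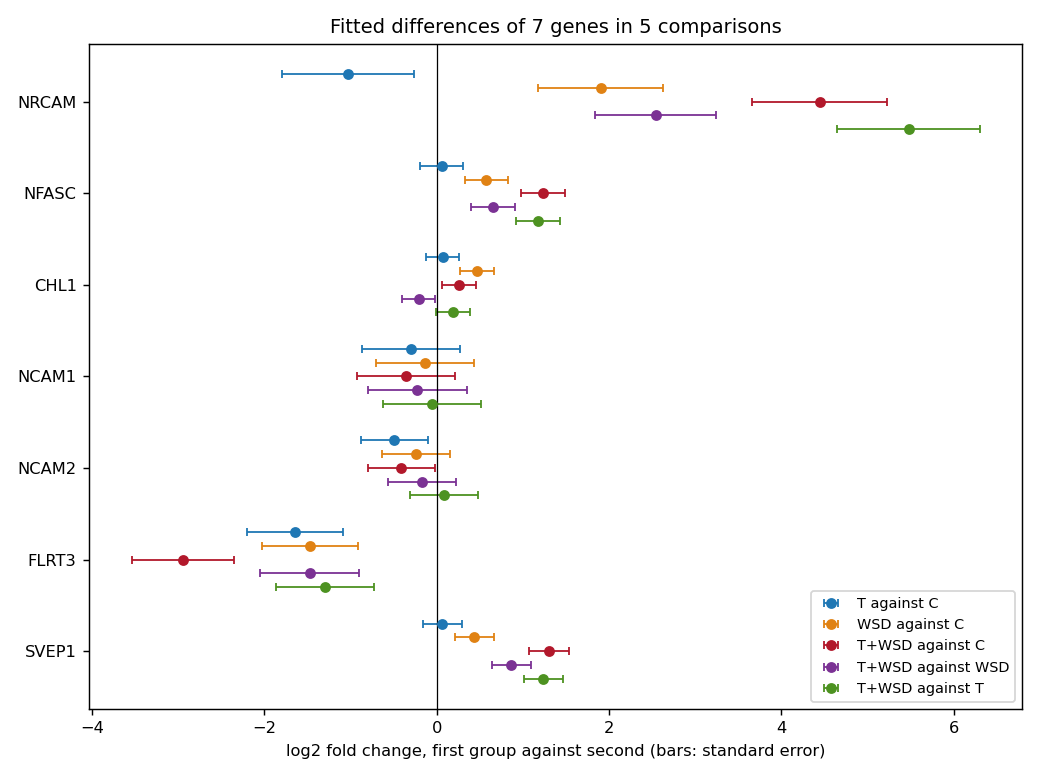
Fitted log2 fold changes of 7 genes in 5 comparisons, with standard errors as bars (6 animals per group). STMN2 is left out because its counts in C and T are at or under 3 in every animal. NRCAM, NFASC and SVEP1 lie to the right in every comparison that holds T+WSD, FLRT3 lies to the left in all 5, and CHL1, NCAM1 and NCAM2 lie between -0.49 and 0.47.

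Across the single treatments, none of the 8 genes was called by edgeR for *WSD* or for *T* against *C*, where edgeR called 0% of all tested genes in either. DESeq2 called none of the 8 either, out of 238 of 15027 genes called for *WSD* and 7 of 24157 for *T*. At an unadjusted p under 0.05, 4 of the 7 genes other than STMN2 passed for *WSD* (NRCAM, NFASC, CHL1 and FLRT3) where 18.5% of all tested genes did, and 1 passed for *T* (FLRT3) where 8.63% did. For *T* + *WSD* against *WSD*, edgeR called none of the 7 genes other than STMN2, beside 0.815% of all tested genes, and DESeq2 called NRCAM and SVEP1, out of 431 of 16445 genes. For *T* + *WSD* against *T*, 3 of these 7 were called (NRCAM, NFASC and SVEP1), all higher, where 3.77% of all tested genes were called (2.34% higher). STMN2 is left out of both counts because it passed the filter through the *T* + *WSD* group. Both comparisons use the same *T* + *WSD* animals as the comparison in which the genes were chosen, so they are not independent of it.

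The interaction of testosterone and diet asks whether the effect of testosterone differed with the diet. None of the 7 genes other than STMN2 passed for it in edgeR, beside 0.243% of all tested genes. Of these 7, NRCAM and SVEP1 had an unadjusted p under 0.05 in edgeR, beside 13.5% of all tested genes. The interaction of NRCAM was 3.57 on the log2 scale (SE 1.03, edgeR adjusted p = 0.1382). DESeq2 called this gene alone of the set (3.61, adjusted p = 0.02119), out of 174 of 15971 genes, and edgeR called it without *WSD* animal 21 (4.57, adjusted p = 0.03038). In the 16 libraries outside the batch the interaction was 3.21 (edgeR adjusted p = 0.4886), and without *C* animal 6 it was 2.54. The interactions of NFASC (0.60, SE 0.36, edgeR adjusted p = 0.4932) and SVEP1 (0.80, SE 0.32, edgeR adjusted p = 0.269) did not pass. An effect of testosterone that depends on the diet was therefore not detected for these genes by edgeR with all animals.

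A list of 129 other genes from the same pathways was compiled from their known roles, of which 103 were tested. It was compiled with earlier results of these data known, so its counts of calls and adjusted p values are a description. In *T* + *WSD* against *C*, 24 of the 103 (23.3%) were called, 13 higher and 11 lower, beside 4.72% of all tested genes called higher and 5.29% called lower. The median log2 fold change of the list was 0.07, against -0.04 over all tested genes. Within the 2 sets of libraries alone, at 4 or 2 animals per group, 0 of the list were called, where 78 of 15448 genes were called outside the batch and 0 of 13799 within it. By edgeR, 0 of the 103 were called for *WSD* (20 at an unadjusted p under 0.05, 1 by DESeq2), for *T* (5, and 0 by DESeq2) and for the interaction (6, and 0 by DESeq2). For *T* + *WSD* against *T*, 4 of the 103 were called, SPTBN1, PLXNA4 and ROBO4 higher and EZR lower, beside 3.77% of all tested genes. For *T* + *WSD* against *WSD* 1 was called, EZR lower, beside 0.815%.

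Among the relatives with immunoglobulin domains and their ligands, 5 of 16 were called in *T* + *WSD* against *C*. This stands beside 4.72% of all tested genes called higher and 5.29% called lower. MCAM, an adhesion protein of vessel walls, rose from 257 to 588 CPM (log2 fold change 1.19, SE 0.34, edgeR adjusted p = 0.02113), and NEGR1, a neuronal growth regulator, rose by 0.63. ALCAM fell by 1.44, CADM4 by 1.32 and NEO1, a netrin receptor, by 0.74 on the log2 scale. Of the 12 linkers between the L1 family and the cytoskeleton, 3 were called. GLDN, which clusters NFASC and NRCAM at the nodes of peripheral nerve, rose from 1.71 to 7.03 CPM (log2 fold change 2.04, SE 0.51, edgeR adjusted p = 0.01181). SPTBN1, a spectrin, rose by 0.84, and EZR, a linker of membranes to actin in epithelia, fell from 542 to 121 CPM (log2 fold change -2.17, SE 0.37, edgeR adjusted p = 0.002945) with all 6 animals below every control. Among 9 genes of NCAM polysialylation and signalling none was called by edgeR in *T* + *WSD* against *C*, and 2 had an unadjusted p under 0.05, beside 32.1% of all tested genes.

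Of the 10 FLRT relatives and receptors, 2 were called in the same comparison, beside 4.72% of all tested genes called higher and 5.29% called lower. FLRT1 rose from 1.12 to 2.39 CPM (log2 fold change 1.07, SE 0.32, edgeR adjusted p = 0.0251), opposite in direction to FLRT3. UNC5D, a receptor for FLRT proteins, ran from 0.409 to 13.96 CPM in *C* and from 0.119 to 0.421 CPM in *T* + *WSD*, which overlapped slightly (log2 fold change -3.88, SE 0.99, edgeR adjusted p = 0.0123). Of the 7 SVEP1 partners, 1 was called, TIE1, an endothelial receptor, which rose by 0.63. All 7 had a positive log2 fold change, with a median of 0.21 against -0.04 over all tested genes. Of the 10 stathmins and neuronal microtubule proteins, 3 were called. MAPT and MAP1B, which stabilize axonal microtubules, each rose by 0.99 on the log2 scale (edgeR adjusted p = 0.04866 and 0.0235), and TUBA1A, a tubulin whose reads may be shared with near-identical copies, fell by 0.83.

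Axon guidance ligands and receptors were the largest list, with 9 of 34 called, 4 higher and 5 lower. Of all tested genes, 4.72% were called higher and 5.29% lower. The largest increases were those of SEMA3G (43.1 to 100 CPM, log2 fold change 1.22), a semaphorin of vessels, PLXNA4 (0.81) and NRP1 (330 to 576 CPM, log2 fold change 0.80), both receptor chains for semaphorins. The largest decreases were those of SEMA3A (27.4 to 10.5 CPM, log2 fold change -1.37), a repellent of axons, EFNB3 (-1.25) and EFNA1 (-1.05), both ephrins. Of the 5 neurotrophins and receptors tested, NTF3 was called, a growth factor for sensory and sympathetic neurons, which rose from 0.598 to 1.55 CPM (log2 fold change 1.35, SE 0.37, edgeR adjusted p = 0.01651).

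**Figure D3:**
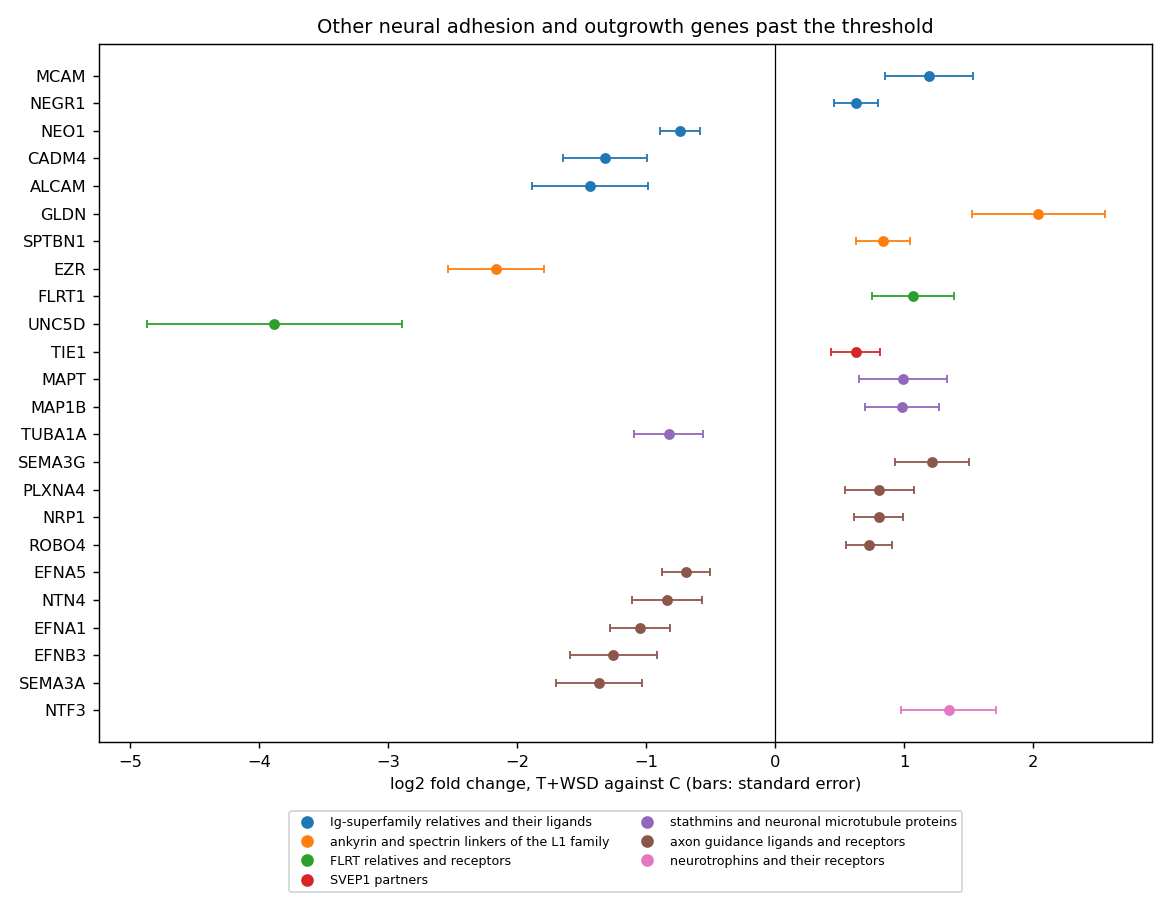
Log2 fold changes in T+WSD against C, with standard errors as bars, of the 24 other neural adhesion and outgrowth genes that were called, coloured by list. The 13 that rose lie right of 0, led by GLDN at 2.04, and the 11 that fell lie left of it, led by UNC5D at -3.88 and EZR at -2.17.

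Markers of other cell types were set beside these genes. Of 16 peripheral neuron markers, 15 had a row and 6 were tested. Beside 4.72% of all tested genes called higher and 5.29% called lower in *T* + *WSD* against *C*, 1 of the 6 was called. That gene was UCHL1, a neuronal ubiquitin hydrolase, at 14.98 to 43.2 CPM in *C* and 53.8 to 127 CPM in *T* + *WSD* (log2 fold change 1.83, SE 0.33, edgeR adjusted p = 0.003002). ELAVL4, a defining neuronal gene, had at most 2 counts in any animal, and 8 of the 15 markers had more than 3 counts in fewer than 12 animals. NEFL, an axonal neurofilament, had a mean of 9.15 ± 7.41 CPM in *C* and 3.92 ± 3.30 CPM in *T* + *WSD* (log2 fold change -1.15, SE 0.61, edgeR adjusted p = 0.1965). The summed level of the list ran from 30.0 to 71.7 CPM in *C*, 25.5 to 60.1 CPM in *T*, 24.8 to 77.4 CPM in *WSD* and 76.0 to 137 CPM in *T* + *WSD*. Without UCHL1 it ran from 15.1 to 30.3 CPM in *C* and from 9.89 to 22.7 CPM in *T* + *WSD*. The medians without UCHL1 were 19.26 CPM in *C* and 19.95 CPM in *T* + *WSD*. Of the 6 tested markers, UCHL1 included, 4 had a positive and 2 a negative log2 fold change in *T* + *WSD* against *C*, with a median of 0.44.

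Schwann cells, the glia that ensheathe peripheral axons, were represented by 10 markers with a row, of which 9 were tested. The summed level ran from 403 to 552 CPM in *C* and from 445 to 522 CPM in *T* + *WSD*, largely from PMP22 and ERBB3. MBP, a myelin protein, was called, falling by 0.79 on the log2 scale (SE 0.21, edgeR adjusted p = 0.01442). It was the 1 call among the 9 in either direction, beside 1522 of all 15207 tested genes. Of the 9 markers, 5 had a positive and 4 a negative log2 fold change in *T* + *WSD* against *C*, with a median of 0.25. The other lists with calls in *T* + *WSD* against *C* were the endothelial list (5 of 11, all higher), the smooth muscle and pericyte list (3 of 9, all higher), the macrophage list (2 of 10, both higher), the adipocyte list (1 of 12, LEP higher) and the fibroblast and stromal list (1 of 12, DPP4 lower). Over all tested genes, 4.72% were called higher and 5.29% lower in this comparison. Of the 6 NK and T cell markers tested, 0 were called by edgeR, with 0 at an unadjusted p under 0.05. The part of these cell types in the levels of the 8 genes was not tested by a separation of cells.

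Mesothelial cells form the epithelium on the surface of the omentum, and their list had the highest share of calls of the 9 marker lists. Of 13 mesothelial markers, 10 were called lower in *T* + *WSD* against *C*, beside 5.29% of all tested genes. The summed level of the list ran from 3063 to 40385 CPM in *C*, 3095 to 18243 CPM in *T*, 916 to 6531 CPM in *WSD* and 372 to 3409 CPM in *T* + *WSD*. The mean log2 CPM of the list lay between 6.27 and 7.64 in *C* and between 3.09 and 5.42 in *T* + *WSD*, so these groups did not overlap. *WSD* animal 21, which stood highest of its group for NRCAM and STMN2, was lowest of its group for this mean, at 4.42. With the mean as a covariate, the log2 fold change of FLRT3 in *T* + *WSD* against *C* was -0.60 in place of -2.95, and those of NRCAM, NFASC and SVEP1 were 2.75, 0.68 and 1.01. With this covariate edgeR called 0 of all 15207 genes, these 8 included, with standard errors of 0.36 to 0.87 for these 4 genes. The mesothelial level and the treatment cannot be told apart between these groups.

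**Figure D4:**
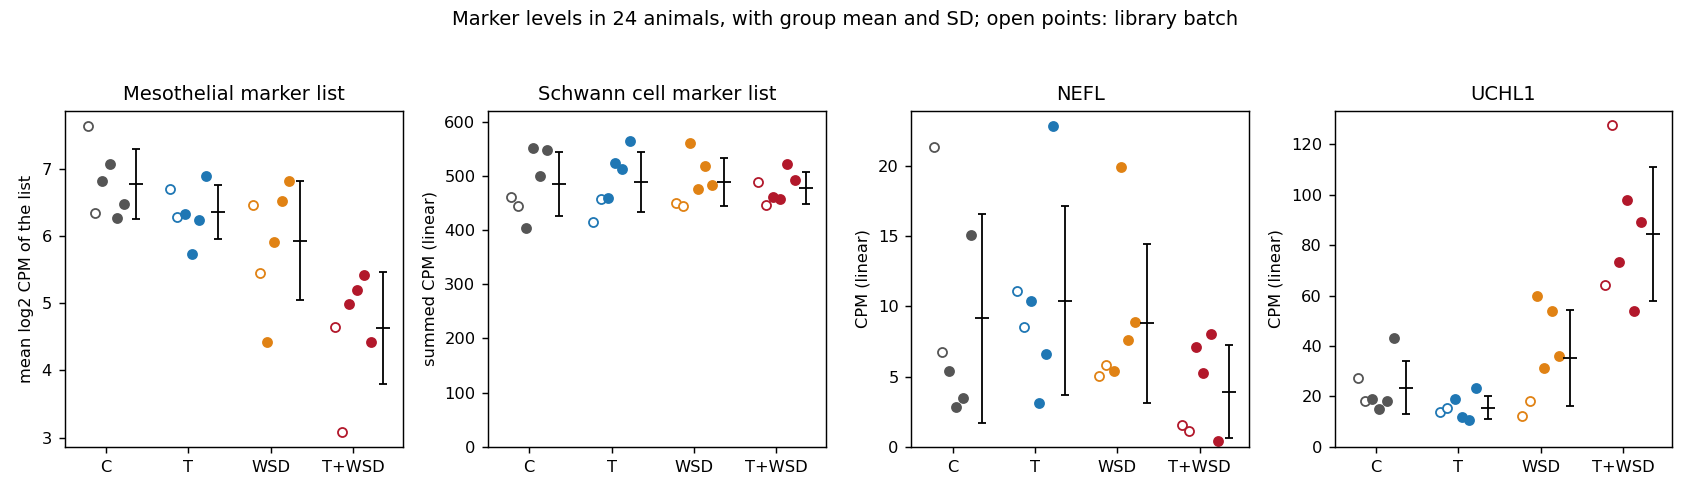
Mesothelial list (mean log2 CPM), Schwann cell list (summed CPM), NEFL and UCHL1 (CPM) in every animal of the groups C, T, WSD and T+WSD. Bars are the group mean and SD (n = 6), and open points are the 8 libraries of the library batch. The T+WSD animals lie below every control for the mesothelial list and above every control for UCHL1, and the groups overlap for the Schwann cell list and NEFL.

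Within groups, each gene was set against the mean log2 CPM of each of the 9 marker lists over the 24 animals after the group means had been removed, giving 63 relations for the 7 genes other than STMN2. The permutation tests moved animals within groups, 100000 times, and were two-sided. Of the 63, 4 had an adjusted p of Pearson's r under 0.05, and they were singled out after their values were seen. FLRT3 rose with the mesothelial list (r = 0.65, permutation p = 0.00193, adjusted p = 0.0304, and Spearman's rho = 0.64, permutation p = 0.00249, adjusted p = 0.05229). It fell with the adipocyte list (r = -0.59, permutation p = 0.00149, adjusted p = 0.0304, and rho = -0.68, permutation p = 0.00017, adjusted p = 0.00945). Without the 2 animals farthest from the median of the list, r was 0.64 and -0.63, and in the 16 libraries outside the batch 0.51 and -0.51.

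NFASC rose with the endothelial list (r = 0.72, permutation p = 0.00126, adjusted p = 0.0304, and rho = 0.66, permutation p = 0.00408, adjusted p = 0.06426). NCAM1 rose with the fibroblast and stromal list (r = 0.68, permutation p = 0.00131, adjusted p = 0.0304, and rho = 0.76, permutation p = 3e-04, adjusted p = 0.00945). Without the 2 farthest animals these r were 0.66 and 0.68, and in the 16 libraries outside the batch 0.66 and 0.59. For NRCAM the relation with the mesothelial list had r = -0.48 (permutation p = 0.04876, adjusted p = 0.2793). This r was -0.24 without the 2 farthest animals and -0.52 in the 16 libraries outside the batch. The relation of NRCAM with the peripheral neuron list had r = 0.26 (permutation p = 0.2808, adjusted p = 0.7076).

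**Figure D5:**
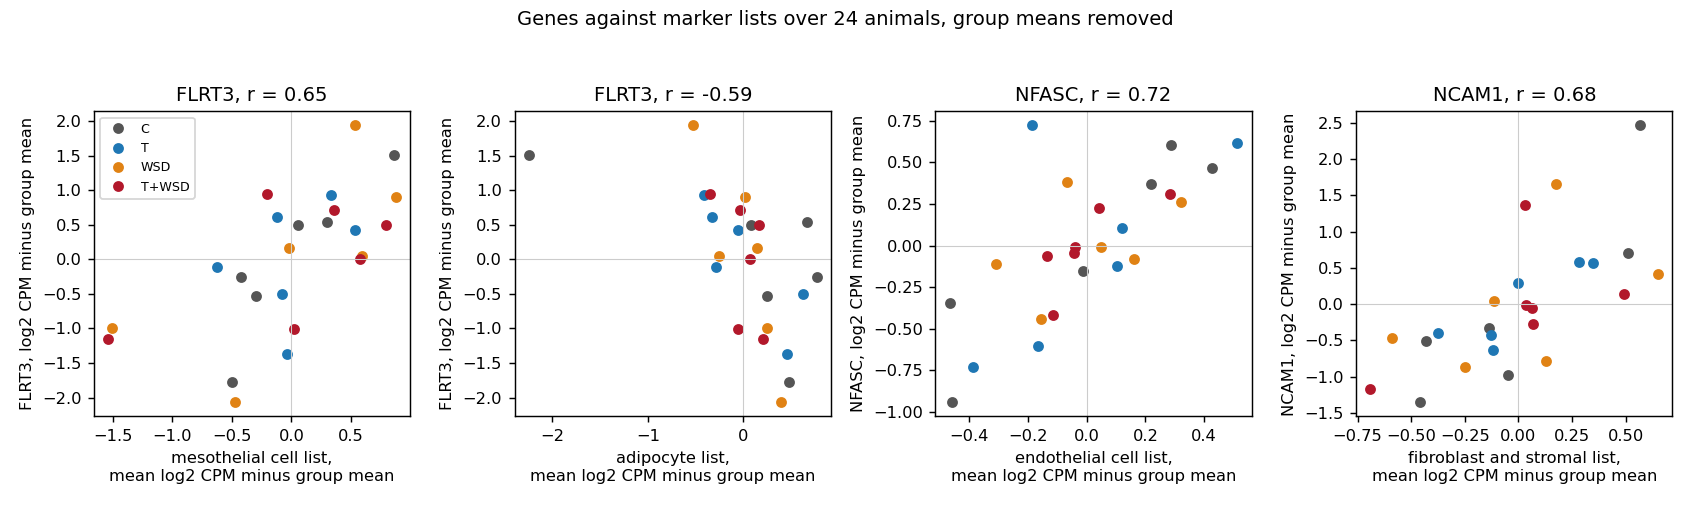
Log2 CPM of FLRT3, NFASC and NCAM1 against the mean log2 CPM of a marker list in 24 animals, both after subtracting the group mean and coloured by group. Each point is an animal, and r is Pearson's correlation. FLRT3 rises with the mesothelial list (0.65) and falls with the adipocyte list (-0.59), where 1 control lies far to the left, NFASC rises with the endothelial list (0.72) and NCAM1 with the fibroblast and stromal list (0.68).

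The genes whose levels followed each member most closely across the 24 animals, after removal of the group means, were listed without a test, since they are the highest of 12605 tested genes with a symbol. For NRCAM these were ABCA6 (r = 0.82), ATP10D (0.81) and AKAP12 (0.79), a scaffold of protein kinase A. For NFASC they were SFRP1 (0.80), a secreted Wnt inhibitor, PLCB4 (0.77) and DOCK9 (0.77), and for CHL1 DIPK1C (0.73) and SUPT7L (0.71). NCAM1 was followed by the matrix genes SPON1 (0.85), FN1 (0.83) and BGN (0.83). NCAM2 was followed by ZNF189 (0.81), RBL2 (0.78) and ZNF146 (0.77). FLRT3 had the closest neighbours of the set, SERPINE2 (0.93), a secreted protease inhibitor, INMT (0.89) and CGNL1 (0.89), a protein of epithelial junctions. SVEP1 was followed by NAB2 (0.77), RECK (0.77) and SH3RF1 (0.76). Between the genes of the set, NFASC and SVEP1 had the highest r, at 0.57, and NRCAM and NFASC had 0.26.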

How the data were processed

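RNA was extracted by the authors from omental biopsies, depleted of ribosomal RNA and sequenced. Per the labels, their processing notes name FastQC 0.11.5, Trimmomatic 0.36, STAR 2.5.2b, DESeq2 1.18.1 and the rheMac8 genome; the counting tool and strand setting are not given in the sources used here. The authors deposited raw counts per gene, with 1 column per animal and no normalization. Overlapping and antisense genes could therefore not be told apart.

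Counts were analysed with edgeR 4.0.16 in R 4.3.3 (limma 3.58.1): TMM, filterByExpr (minimum count 10, minimum total 15), and the quasi-likelihood F-test in 1 fit of 24 animals, with Benjamini-Hochberg adjustment over 15207 genes. All tests were two-sided. Levels are CPM, and log2 CPM used a prior count of 2. The fit was tested on simulated data. Total counts ran from 6899185 to 28270776, and intervals and floors (3 counts) cover counting error only. Symbols came from gene name tables. Figures used matplotlib 3.10.9.

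The 9 genes and all lists were chosen with earlier results of these data known. Named are these genes, up to 3 increases and 3 decreases per pathway list called in *T* + *WSD* against *C*, the 2 most abundant markers and those at or under 3 counts, and 3 neighbours per gene, of which 1 is not reported here. MBP, LEP, DPP4 and ROBO4, and the comparison of the list without UCHL1, were named after their values were seen. The alternatives were DESeq2 1.42.0, other size factors, filters and fold thresholds, the library batch as covariate or split, only the groups compared, the mesothelial covariate and each animal left out. The split to the 8 batch libraries was chosen after seeing the data. Bisulfite sequencing was not used here.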

Additional observations from a re-analysis of the deposited data

Results flagged for a closer look

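Within the 4 groups of 6 animals, the gap of the highest or lowest animal to the next was compared with the range of the group for each of the 8 genes (32 sets of values). In 7 of the 32 an animal stood apart beyond the 95% critical value of Dixon's test, where chance gives about 1 in 20 for normally distributed values. The ratio was taken on linear CPM and not on log2 CPM, so that rate need not hold here. All 7 were the highest animal of their group. For NCAM1 these were *C* animal 6 at 63.4 CPM (next 18.7 CPM), *WSD* animal 24 at 42.7 CPM (next 17.95 CPM) and *T* + *WSD* animal 12 at 31.4 CPM (next 13.4 CPM). For NCAM2 it was *C* animal 1 at 5.51 CPM (next 2.45 CPM). *WSD* animal 21 stood apart for both NRCAM, at 42.9 CPM (next 14.8 CPM), and STMN2, at 0.855 CPM (next 0.141 CPM). For SVEP1 it was *T* + *WSD* animal 8 at 2032 CPM (next 1220 CPM), the library with the fewest counts.

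For NRCAM, all *T* animals lay below the mean of *C* and all *T* + *WSD* animals lay above the mean of *WSD*. The mean of *C* was set by animal 6, 4 of 6 controls also lay below it, and the median of *T* was above that of *C*, so no lower level with testosterone on chow is shown. The difference of both effects was 3.57 on the log2 scale (edgeR adjusted p = 0.1382), which did not pass, and without *C* animal 6 it was 2.54, with an effect on chow of -0.0045.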

How the results depend on the processing

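No paired analysis was made, since the paper states that animals were assigned to the groups at random and each gave 1 RNA library. Of the 8 genes, the number called in *T* + *WSD* against *C* was 5, with STMN2 among them. It became 3 with at least 10 counts in every animal, which leaves STMN2, FLRT3 and NCAM2 untested. It became 1 in the 16 libraries outside the batch, 0 in the 8 libraries of the batch and 0 with the mesothelial covariate. Over all genes these last 3 fits called 78 of 15448, 0 of 13799 and 0 of 15207, so the counts of 0 are not particular to these genes. Against *WSD* it was 1 (STMN2, which passed the filter through the *T* + *WSD* group), and became 2 with RLE or upper-quartile factors, 3 with DESeq2, and 0 in either set of libraries, with the mesothelial covariate or with only the groups compared, and it ran from 0 to 3 with 1 animal left out. Against *T* it was 4, with STMN2 again among them, and became 0 in the 8 libraries of the batch and 0 with the mesothelial covariate. For the interaction it was 0, became 1 with DESeq2 and ran from 0 to 1 with 1 animal left out.

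Of the 103 other neural genes, the 24 called in *T* + *WSD* against *C* became 12 at a fold change over 2, 0 in either set of libraries, 0 with the mesothelial covariate and 15 to 30 with 1 animal left out (15 without *C* animal 1). Against *WSD*, 1 became 0 with no filter on low counts, in either set of libraries, with the mesothelial covariate or with only the groups compared, 3 with DESeq2, and 0 to 3 with 1 animal left out. Against *T*, 4 became 1 at a fold change over 2, 2 with no filter, 2 outside the batch, 0 within it, 0 with the mesothelial covariate, 13 with only the groups compared, 11 with DESeq2 and 2 to 9 with 1 animal left out. For *WSD* against *C*, 0 became 1 with DESeq2 and 0 to 1 with 1 animal left out. Fewer animals (16 or 8) were in the split fits; for the rest the cause was not tested.

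Signs changed for genes that were not called. Outside the batch NCAM2 was 0.21 in *T* + *WSD* and 0.088 in *T*, and CHL1 -0.15 in *T*, each against *C*. Within the batch NCAM1 was 0.46, 0.85 and 1.27 in *T* + *WSD*, *WSD* and *T*, and NFASC and SVEP1 were -0.36 and -0.37 in *T*. With the mesothelial covariate NCAM1 was 0.13 and NCAM2 0.17 in *T* + *WSD*, NCAM2 0.08 in *WSD* and NFASC -0.06 in *T* against *C*, and FLRT3 was 0.0044 against *WSD* and 0.42 against *T*. With 1 animal left out, the log2 fold changes against *C* ran for NCAM1 from -0.77 to 0.64 in *T* + *WSD*, -0.69 to 0.86 in *WSD* and -0.49 to 0.70 in *T*, for NCAM2 from -0.55 to 0.021 in *T* + *WSD* and -0.44 to 0.18 in *WSD*, and in *T* for NFASC from -0.11 to 0.19, CHL1 from -0.040 to 0.20 and SVEP1 from -0.082 to 0.19. None of these had been called.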
